A study of Homo sapiens with 32 samples.

Results

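The serum response factor (SRF) and its cofactors were followed at the level of mRNA in HEK293 cells that were stimulated with epidermal growth factor (EGF), angiotensin II (AII) or both. The set comprised 7 of the 57773 genes in each count table and was taken by gene symbol: SRF itself, the ternary complex factors (TCFs) ELK1, ELK3 and ELK4, the myocardin-related transcription factors (MRTFs) MKL1 (MRTF-A) and MKL2 (MRTF-B), and MYOCD (myocardin). All 7 genes were found in both tables. HEK293 is an established human embryonic kidney cell line. Cells of every group, controls included, carried a transiently transfected plasmid for the human AII receptor type 1 (AT1R) and were kept in medium without foetal calf serum during stimulation. The groups were untreated control, AII (1 nmol/l), EGF (10 µg/l) and AII+EGF at the same concentrations, each for 6 h or 24 h. Every group had 4 libraries except AII+EGF after 24 h, which had 3. The values come from mixed populations of transfected and untransfected cells of 1 line, so that a change in the number of responding cells and a change in RNA per cell cannot be told apart. The sources do not state whether libraries of a group came from separate cultures, and p-values therefore measure the spread between these libraries, which may be technical.

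SRF binds as a dimer to the CArG box, a short A/T-rich DNA element flanked by C and G bases. It has no strong activation domain of its own and works with partners of 2 families that compete for the same face of the protein. TCFs are ETS-domain proteins that are phosphorylated by ERK1/2 and other MAP kinases and act at immediate early genes such as FOS and EGR1. MRTFs bind monomeric actin in the cytoplasm, enter the nucleus when actin polymerises, and act at genes of the contractile and adhesion apparatus. Both families are regulated mainly after translation, whereas the present values describe mRNA only. Myocardin is the founding member of the MRTF family and is known from cardiac and smooth muscle.

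Promoter sequence was inspected because SRF and several of its targets are known to carry CArG boxes near the start site. RefSeq promoter windows (250 bases before to 50 bases after the gene start) were available for 6 of the 7 genes. Only the windows printed below were placed on GRCh37 by exact match. MYOCD was not among the RefSeq promoters. The windows of SRF (chr6:43138757-43139056, plus strand), ELK1 (chrX:47509954-47510253, minus strand) and, as a target for comparison, EGR1 (chr5:137800918-137801217, plus strand) are shown 5′ to 3′ in the direction of transcription. SRF is shown as the only member with a CArG box in these windows, and ELK1 as the only member whose mRNA passed a test. EGR1 is shown because its mRNA had the largest rise among the TCF targets. Capitals mark CArG boxes (CC, then 6 bases that are A or T, then GG) and, in SRF, also the 9-base EGR site GCGGGGGCG; both strands were searched.
SRF: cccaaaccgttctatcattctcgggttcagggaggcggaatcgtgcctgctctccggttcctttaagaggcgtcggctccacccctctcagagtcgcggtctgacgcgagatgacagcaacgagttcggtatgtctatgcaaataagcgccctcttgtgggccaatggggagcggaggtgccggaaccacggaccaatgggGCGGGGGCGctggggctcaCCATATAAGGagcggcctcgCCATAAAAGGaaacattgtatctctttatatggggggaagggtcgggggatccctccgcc
ELK1: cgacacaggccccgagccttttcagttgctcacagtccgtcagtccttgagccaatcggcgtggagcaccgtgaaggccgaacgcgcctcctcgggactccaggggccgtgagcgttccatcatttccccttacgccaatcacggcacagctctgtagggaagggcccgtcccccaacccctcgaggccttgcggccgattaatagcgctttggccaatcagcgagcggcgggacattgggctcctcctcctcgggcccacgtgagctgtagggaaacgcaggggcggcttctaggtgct
EGR1: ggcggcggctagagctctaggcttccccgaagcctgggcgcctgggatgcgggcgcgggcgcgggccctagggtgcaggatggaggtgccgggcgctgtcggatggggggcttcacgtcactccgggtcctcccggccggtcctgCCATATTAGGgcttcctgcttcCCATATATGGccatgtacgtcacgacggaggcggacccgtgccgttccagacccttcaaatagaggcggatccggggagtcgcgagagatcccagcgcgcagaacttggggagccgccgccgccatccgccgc

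The printed SRF window, the first of 2 for this gene, held 2 CArG boxes, 30 to 21 and 10 to 1 bases before the start. The EGR site lay 49 to 41 bases before the start. The second SRF window held none of the motifs searched. In the EGR1 window 2 CArG boxes lay 105 to 96 and 83 to 74 bases before the start. CArG boxes were found in any window for 1.6% of 27305 genes in the RefSeq table, and the EGR site for 6.14%. A gene with several windows had more chances of a match. The ETS core CCGGAA, which TCFs and other ETS proteins can bind, was found for 20.1% of genes. Among the members SRF had 1 and ELK4 had 2 such cores, and the core of SRF overlapped no other motif. None of these 3 motifs was in the ELK1 window. MRTF targets had a CArG box in 7 of 18 matched genes and TCF targets in 2 of 8. These matches describe the letters of a short window and do not show that a protein was bound there. Sequence outside the windows was not searched, so a gene without a match may carry the motif elsewhere.

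The libraries differed in depth and in composition between the time points. Total counts were 3881841 to 8540815 after 6 h and 6646227 to 33070903 after 24 h. Protein-coding genes held 81.4% to 84.7% of them after 6 h but 20.8% to 63.4% after 24 h. Small nuclear RNA U1 genes accounted for 8.90% to 57.2% of the later libraries. The biological coefficient of variation was 10.6% after 6 h and 29.1% after 24 h. Libraries of a group always differed by more than sampling noise and each was counted as a replicate. Of 7 markers fixed for HEK293 cells 5 exceeded a mean of 5 FPM (fragments counted for a gene per 1000000, scaled by TMM) after 6 h and 6 after 24 h. Smooth or cardiac muscle markers, the cells known for MYOCD, reached this level for 2 of 8 (MYH11 and SMTN), and their sum was 42.5 to 65.7 FPM after 6 h and 22.4 to 37.6 FPM after 24 h. For fibroblasts only COL1A1 did so among 5 markers. No immune or endothelial marker did so, with CD3E at 0 in every library and COL1A2 at 0 after 6 h.

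In untreated cells after 6 h SRF and ELK1 had the highest mRNA levels per length of the set. Mean FPM per kilobase of exon was 16.9 ± 1.29 for SRF (SD, n = 4) and 13.9 ± 1.0996 for ELK1, and the libraries of these genes did not overlap. ELK4 followed with 6.49 ± 0.829, MKL2 with 5.35 ± 0.514, ELK3 with 4.95 ± 0.432 and MKL1 with 4.78 ± 0.520. ELK1 lay above ELK4 in every library, whereas the ranges of ELK4, MKL2, ELK3 and MKL1 overlapped between neighbours. With the longest transcript instead of all exons as length, ELK1 came to 16.4 and overlapped SRF, and MKL2 came to 10.1 and MKL1 to 7.74, both above the 7.69 of ELK4. The order of the last 4 genes therefore depended on the gene model. After 24 h control levels were 8.65 ± 3.06 FPM per kilobase for SRF, 5.35 ± 0.400 for ELK1, 3.69 ± 0.682 for ELK4, 3.56 ± 0.339 for ELK3, 2.56 ± 0.395 for MKL2 and 2.37 ± 0.445 for MKL1 (n = 4 each). SRF ranged from 4.69 to 11.8 there and overlapped ELK1. Levels of the tables are not compared with each other, since time and library preparation cannot be told apart.

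MYOCD was at the floor of detection. After 6 h it had 0 counts in 14 of 16 libraries and 1 count in each of the others, and 3 counts, the upper limit that a count of 0 allows, correspond to 0.364 to 0.787 FPM in these libraries. After 24 h it had 23 counts in all, from 9 of 15 libraries. Only 1 library exceeded 3 counts, with 8 counts (0.435 FPM) after EGF. MYOCD was removed by the filter on low counts at both times and was not tested, and 6 of 7 members remained. Its exons overlap an antisense gene, ARHGAP44-AS1, over 7.93% of their length, and the strand setting of the counting is not stated.

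After 6 h EGF raised the mRNA of ELK1, a TCF and substrate of ERK1/2, and the other tested members did not pass the test. ELK1 had 43.0, 46.1, 51.9 and 48.1 FPM in the control libraries and 61.4, 59.0, 60.9 and 66.0 FPM in the EGF libraries. The lowest EGF library lay above the highest control library. The log2 fold change was 0.39 (SE 0.08, 1.31-fold, 95% confidence interval 1.16 to 1.47) with an adjusted p of 0.00547 in edgeR's quasi-likelihood test. An exact two-sided permutation test on FPM gave p = 0.0286, which is the smallest value that 4 against 4 libraries allow. ELK1 was thus 1 of 6 tested members at an FDR below 0.05, where 5.97% of 18618 tested genes were called, 3.6% higher. The full rule also asked for a fold change above 1.5 and a mean above 5 FPM. It called 1.73% of genes (1.04% higher and 0.688% lower) and no member, with 1 member at an unadjusted p below 0.05 in edgeR and 0 called with DESeq2. For transiently transfected HEK293 cells the study reported immunoblots in which ELK1, SRF and MRTF-A protein was unchanged with EGF, AII or both. Those blots measure protein, at a time that its text does not give, and the present values mRNA.

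With AII+EGF the ELK1 libraries had 73.1, 61.0, 69.3 and 65.9 FPM after 6 h. They again lay above every control library. ELK1 rose by 0.51 on the log2 scale (SE 0.08, 1.42-fold, 95% confidence interval 1.26 to 1.60, adjusted p of 0.000347 in edgeR, exact permutation p = 0.0286). At an FDR below 0.05 this was 1 of 6 members against 6.1% of all genes (4% higher). Under the full rule 1.95% of genes were called, 1.39% higher and 0.564% lower, and 0 members in edgeR or DESeq2. The interval for ELK1 included 1.5-fold. The rise was present in both runs of library numbers. Each group is divided over 2 runs of consecutive numbers, and the labels do not say what the numbers stand for. After 6 h the numbers go on without a gap, and the cut was set where the order of the groups starts again. The runs are therefore not known to be separate batches. The rise was 0.43 and 0.34 for EGF and 0.59 and 0.43 for AII+EGF, as log2 ratio of mean FPM over 2 libraries per group and run.

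With AII alone ELK1 did not pass the test after 6 h. The AII libraries had 48.3, 50.1, 50.03 and 56.7 FPM and overlapped the controls. The log2 fold change was 0.11 (SE 0.09, fold 0.955 to 1.22, adjusted p of 0.987 in edgeR). With AII no gene was called under either rule (0% of 18618 genes, with 845 genes and 0 members at an unadjusted p below 0.05). AGTR1, whose counts cannot separate plasmid from endogenous AT1R mRNA, was at 1096 ± 106 FPM in control and 1097 ± 94.6 FPM with EGF. It was at 1388 ± 93.2 FPM with AII and 1497 ± 76.0 FPM with AII+EGF. With AII+EGF against control AGTR1 passed the FDR alone, at a log2 fold change of 0.45. The part of AGTR1 in any of the results was not tested.

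The study asked whether stimulation of both receptors goes beyond stimulation of either. ELK1 was 0.12 higher on the log2 scale with AII+EGF than with EGF (SE 0.08, fold 0.969 to 1.22, adjusted p of 0.722 in edgeR), and the libraries of these groups overlapped. The interaction on the log2 scale was 0.01 (SE 0.12, fold 0.852 to 1.19, adjusted p of 0.985). Compared with AII alone ELK1 rose by 0.40 with AII+EGF (SE 0.08, adjusted p of 0.00403, no overlap), where 5.93% of genes passed the FDR and 1.87% the full rule. For AII+EGF against EGF and for the interaction 0% of genes and 0 members were called under either rule in edgeR (1352 and 1491 genes and 0 members at an unadjusted p below 0.05).

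**Figure D1:**
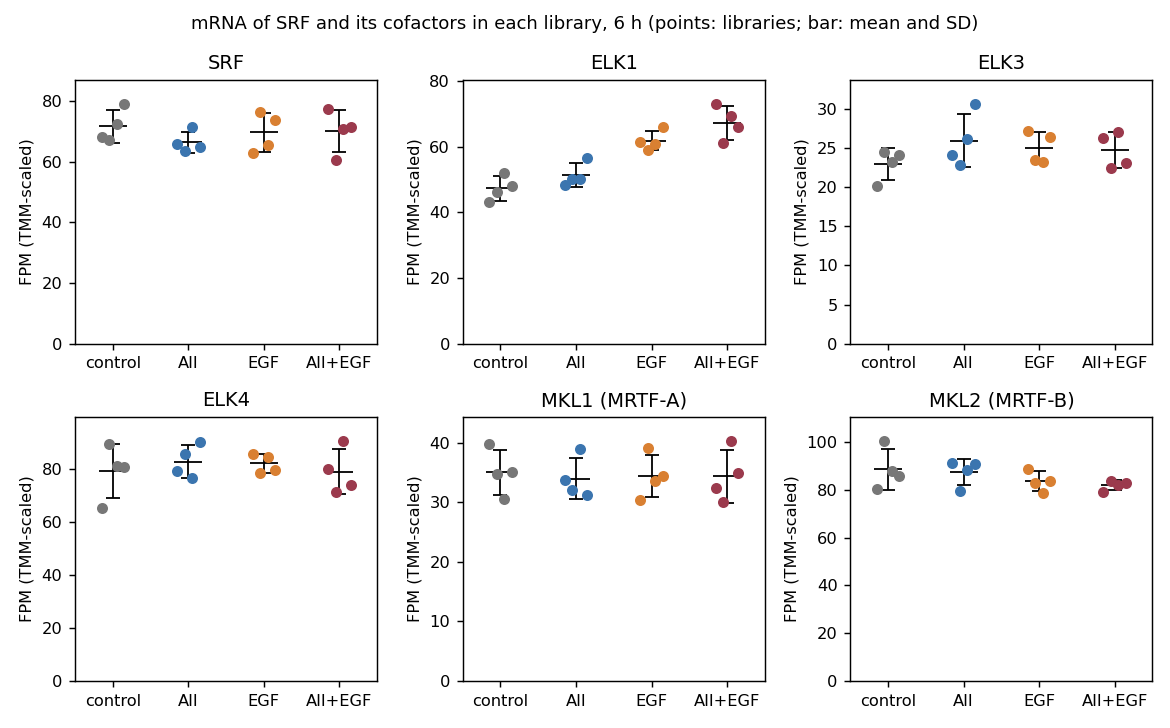
TMM-scaled FPM of the 6 measurable genes in each library after 6 h, by condition (points, libraries; bars, mean and SD, n = 4; every y axis starts at 0). ELK1 lies between 43.0 and 51.9 FPM in control and between 59.0 and 73.1 FPM in the groups with EGF, whereas the other genes overlap between control and each treatment.

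SRF mRNA did not differ detectably from control in any group after 6 h. Control libraries were at 68.0, 67.1, 72.2 and 79.1 FPM and AII libraries at 65.8, 63.5, 71.4 and 64.8 FPM. EGF libraries were at 62.8, 76.4, 65.3 and 73.8 FPM and AII+EGF libraries at 77.2, 60.7, 70.7 and 71.4 FPM. All groups overlapped. Log2 fold changes were -0.11 with AII (fold 0.817 to 1.05), -0.04 with EGF (fold 0.858 to 1.101) and -0.03 with AII+EGF (fold 0.862 to 1.11), at adjusted p of 0.987, 0.852 and 0.891 in edgeR. These intervals leave out a change of 1.5-fold in either direction.

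Neither of the other TCFs, ELK3 and ELK4, passed a test after 6 h. ELK3, known as a TCF that can repress, had 20.1, 24.6, 23.2 and 24.1 FPM in control and 26.3, 22.5, 27.1 and 23.2 FPM with AII+EGF. Against control it differed by 0.16 (AII), 0.12 (EGF) and 0.10 (AII+EGF) on the log2 scale, and the intervals reached from 0.913 to 1.31-fold. ELK4 (SAP-1) had 65.2, 89.5, 81.1 and 80.7 FPM in control and 80.1, 71.4, 90.5 and 74.0 FPM with AII+EGF. In the same order its log2 fold changes were 0.06, 0.05 and -0.01. Whether the effect on ELK1 differed from that on ELK3 or ELK4 was not tested. As a description, ELK1 made up 54.9% ± 2.34 of the summed FPM per kilobase of the 3 TCFs in control (SD, n = 4) and 55.0% ± 0.426 with AII. In the presence of EGF its share was 60.0% ± 1.23 without and 62.7% ± 1.48 with AII. The share of ELK4 was 25.5% ± 1.77 in control and 20.5% ± 1.13 with AII+EGF, and that of ELK3 was 19.5% ± 0.744 and 16.9% ± 0.396. The shares are parts of a common sum, so a higher share of ELK1 lowers those of ELK4 and ELK3 without a fall in their own levels.

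**Figure D2:**
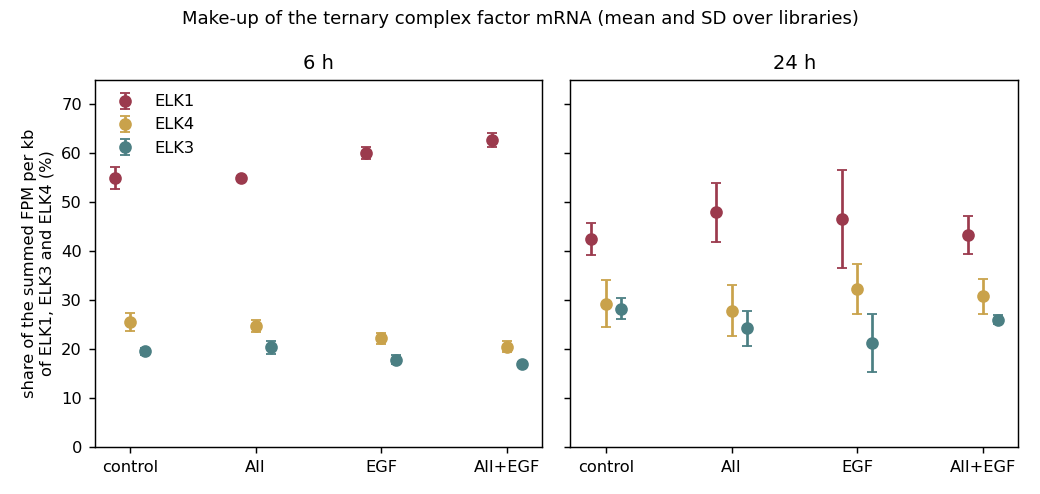
Share of ELK1, ELK3 and ELK4 in their summed FPM per kilobase of exon (%, y axis) for each condition after 6 h and 24 h (points, mean; bars, SD; n = 4, except n = 3 for AII+EGF after 24 h). After 6 h ELK1 goes from 54.9% in control to 62.7% with AII+EGF; after 24 h its means lie between 42.5% and 47.9% with wider bars.

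Neither MRTF passed the test after 6 h, and the libraries of each treatment overlapped those of control. MKL1 had 39.8, 34.8, 30.5 and 35.1 FPM in control and 32.3, 30.0, 40.3 and 34.9 FPM with AII+EGF. Its log2 fold change was -0.04 for AII and -0.02 for both EGF and AII+EGF. MKL2 had 80.3, 100.5, 87.8 and 86.0 FPM in control and 79.3, 83.7, 82.1 and 83.01 FPM with AII+EGF. Its log2 fold changes were -0.02 (AII), -0.09 (EGF) and -0.11 (AII+EGF), with exact permutation p of at least 0.143. Over the 5 tested members other than ELK1, all confidence intervals against control after 6 h lay between 0.817 and 1.31-fold, and adjusted p was at least 0.459 in edgeR. The median log2 fold change of the 6 tested members was 0.02 (AII), 0.01 (EGF) and -0.01 (AII+EGF), beside 0.00, -0.01 and -0.01 over all genes tested.

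After 24 h no member passed the test in any comparison. Under the FDR alone and under the full rule 0.0316% of 22174 tested genes were called with EGF and 0.0271% with AII+EGF, and 0% with AII, for AII+EGF against EGF and for the interaction. For AII+EGF against AII 0.0451% of genes passed the FDR and 0.0406% the full rule. DESeq2 called 0 members as well. The unadjusted p was below 0.05 for 2 members with EGF (ELK3 and MKL2) and for 1 with AII+EGF against EGF (ELK3).

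ELK1 did not pass the test after 24 h. It had 18.2, 16.4, 19.8 and 18.4 FPM in control, 18.7, 18.0, 15.6 and 18.0 FPM with EGF and 18.0, 18.7 and 23.5 FPM with AII+EGF. The groups overlapped. The log2 fold change was -0.05 with EGF (fold 0.791 to 1.18, adjusted p of 0.956 in edgeR) and 0.15 with AII+EGF (fold 0.896 to 1.37, adjusted p of 0.998). With AII it was 0.26, from libraries at 21.9, 18.9, 24.5 and 21.7 FPM (fold 0.982 to 1.45, adjusted p of 1.00, exact permutation p = 0.0571).

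The difference of the ELK1 effect between 24 h and 6 h was -0.44 on the log2 scale for EGF (95% confidence interval -0.75 to -0.14, unadjusted p = 0.00552 and adjusted p of 0.264 in edgeR). For AII+EGF it was -0.38 (interval -0.69 to -0.06, adjusted p of 0.542). Over all 21932 genes of the joint fit 0.173% differed between the time points for EGF, 0.123% for AII+EGF and 0% for AII, and 0 members did so after adjustment. The ELK1 rise after 6 h was therefore not shown to differ from its effect after 24 h once all genes were taken into account. The joint fit used 1 spread per gene for both times, although the biological coefficient of variation was 10.6% and 29.1%. Its intervals and p-values rest on that shared spread. Time also goes together with library preparation, so a difference could not be assigned to time.

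ELK3 had its lowest values with EGF after 24 h. The EGF libraries had 5.77, 14.01, 15.7 and 10.6 FPM against 18.2, 14.4, 16.9 and 16.7 FPM in control. The groups overlapped, since the third EGF library lay above the second control library. Within each run of library numbers they did not overlap, and the log2 ratio of mean FPM was -0.72 and -0.35 (2 against 2 libraries each). This was not particular to ELK3. ELK1 with AII (0.24 and 0.27) and ELK4 with AII+EGF (0.17 and 0.31, with 1 AII+EGF library in the first run) did not overlap control in either run. Neither did MKL1 with AII+EGF, although its direction differed between the runs (0.12 and -0.32, again with 1 AII+EGF library in the first run). SRF with AII after 6 h (-0.06 and -0.15) was likewise apart from control in both runs. How often this occurs over all genes was not computed. ELK3 with EGF differed from control by -0.50 on the log2 scale (SE 0.22, fold 0.516 to 0.967, unadjusted p = 0.0316 and adjusted p of 0.531 in edgeR, exact permutation p = 0.0571). The first EGF library, with 50 ELK3 counts, weighed on this value, and without it the log2 fold change was -0.29 (adjusted p of 0.858). With AII+EGF ELK3 was at 16.4, 15.6 and 17.3 FPM, a log2 fold change of -0.01 against control.

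The same EGF library was also the lowest of its group for ELK4, with 31.5 FPM against 36.1 to 62.6 FPM, and for MKL2, with 25.6 FPM against 34.3 to 43.0 FPM. The log2 fold change of MKL2 with EGF was -0.30 (SE 0.14, fold 0.661 to 0.998, unadjusted p = 0.0482, adjusted p of 0.584 in edgeR). Without that library it was -0.19 (adjusted p of 0.900). Protein-coding genes held 36.0% of the counts of this library; the part of its composition in these values was not tested. ELK4 after EGF was at 0.02 on the log2 scale (fold 0.769 to 1.34) and after AII+EGF at 0.19 (fold 0.847 to 1.53).

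SRF varied most among control libraries after 24 h, with 19.9, 33.9, 49.9 and 42.7 FPM. The EGF libraries had 44.9, 33.7, 41.1 and 45.3 FPM and the AII+EGF libraries 38.5, 42.3 and 43.5 FPM, all within the control range. The log2 fold change was 0.17 with either treatment (EGF, fold 0.824 to 1.53, and AII+EGF, fold 0.808 to 1.57). Within the runs of library numbers the EGF ratio was 0.55 and -0.10, so that the direction was not shared. MKL1 had 16.1, 13.8, 18.1 and 21.5 FPM in control and 16.2, 15.8 and 15.9 FPM with AII+EGF, a log2 fold change of -0.12 (fold 0.726 to 1.17).

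**Figure D3:**
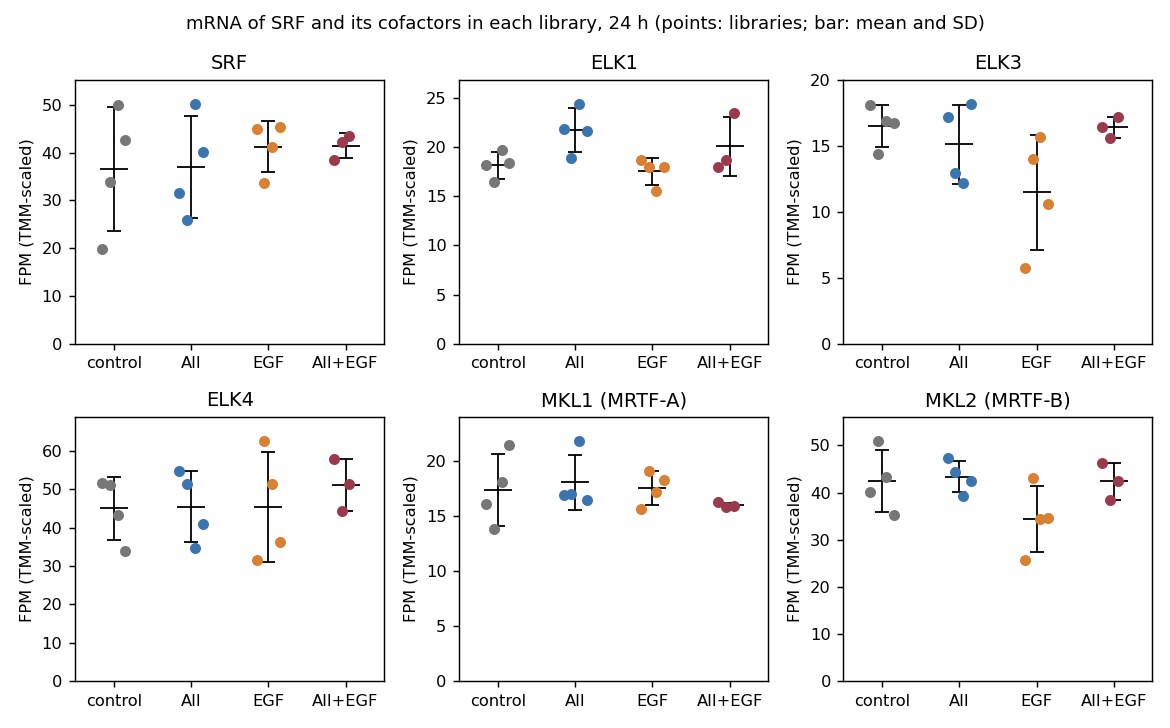
TMM-scaled FPM of the same 6 genes in each library after 24 h, by condition (points, libraries; bars, mean and SD; n = 4, n = 3 for AII+EGF; every y axis starts at 0). ELK3 with EGF reaches down to 5.77 FPM in 1 library, and SRF in control spans 19.9 to 49.9 FPM.

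**Figure D4:**
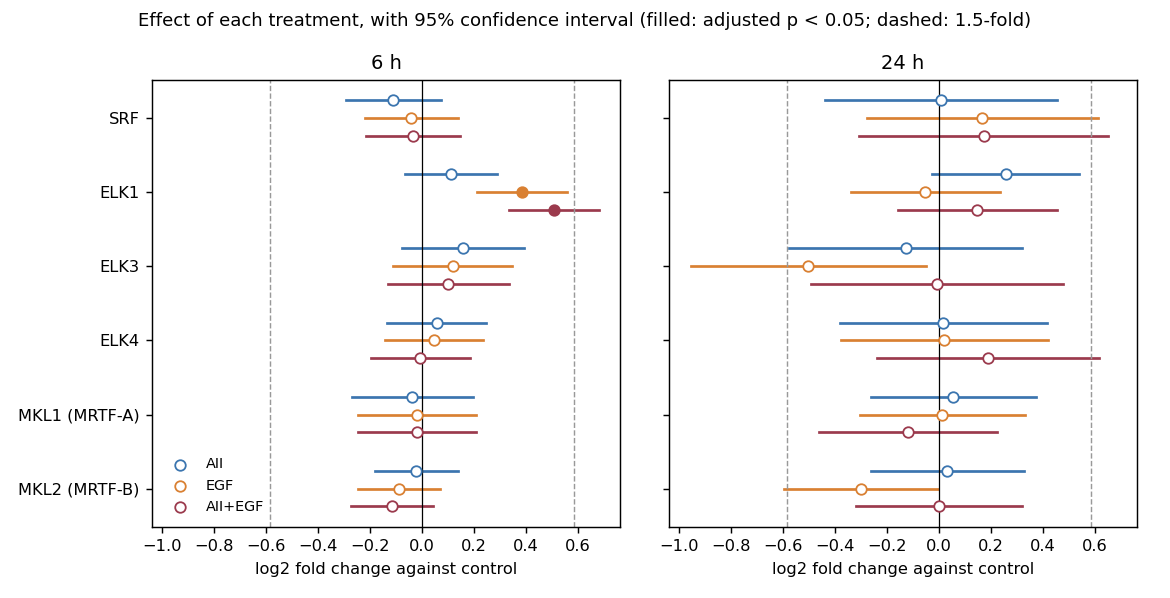
Log2 fold change against control (x axis) with its 95% confidence interval for each gene and treatment after 6 h and 24 h; filled points have an adjusted p below 0.05 and dashed lines mark 1.5-fold. Only ELK1 with EGF (0.39) and with AII+EGF (0.51) after 6 h is filled, and the intervals are wider after 24 h.

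The targets of the network were set beside its transcription factors, using lists that were chosen with earlier results of these data known. Of 11 genes known as TCF targets 9 were tested after 6 h. With EGF 4 rose under the full rule and 5 at the FDR alone, and with AII+EGF 5 and 7, respectively, and none fell. Over all genes tested 1.04% were higher under the full rule and 3.6% at the FDR alone with EGF, and 1.39% and 4% with AII+EGF. The median log2 fold change of the list was 0.53 with EGF and 0.66 with AII+EGF, beside -0.01 over all genes in either case. EGR1, an immediate early transcription factor, was at 2.25 ± 0.721 FPM in control and 3.26 ± 0.736 FPM with AII (SD, n = 4). It reached 51.5 ± 3.62 FPM with EGF and 57.7 ± 8.53 FPM when AII was added to EGF. Its rise was 4.48 with EGF and 4.64 with AII+EGF on the log2 scale (SE 0.17 each, adjusted p of 2.37e-14 and 9.53e-15 in edgeR). ARC, known as a synaptic immediate early gene, rose by 3.43 with AII+EGF (SE 0.27, from 1.61 ± 1.07 to 18.3 ± 2.40 FPM), EGR3 by 3.13 (SE 0.25) and FOS, the AP-1 subunit, by 2.68 (SE 0.30, from 0.984 ± 0.353 to 6.604 ± 1.49 FPM). The fifth call was JUNB at 0.66, and IER2 (0.53) and MCL1 (0.28) passed the FDR alone. FOS, ARC and EGR3 each had as few as 3 counts in a library. At 0.984, 1.11 and 1.61 FPM in control, FOS, EGR3 and ARC could enter the 9 tested genes through the groups with EGF. The counts of risen TCF targets therefore describe the list and do not test its response. None of the TCF targets passed the test of AII+EGF against EGF, where ARC had the largest value of the list at 0.88 (SE 0.20, adjusted p of 0.578 in edgeR). After 24 h 1 of 10 tested TCF targets was called, EGR1, at 2.53 with EGF and 2.95 with AII+EGF.

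Of 22 genes known as MRTF targets 18 were tested after 6 h. With AII+EGF 1 rose under the full rule and 3 at the FDR alone, none fell, and the median was 0.17, where 1.39% and 4% of all genes were higher and their median was -0.01. ZYX (zyxin), a focal adhesion protein, rose from 28.9 ± 1.87 to 44.5 ± 4.11 FPM (log2 fold change 0.62, SE 0.10, adjusted p of 0.000355 in edgeR). The others past the FDR were VCL (vinculin) at 0.43 and FLNA (filamin A) at 0.31. With EGF alone 0 MRTF targets were called under the full rule and 2, VCL and ZYX, at the FDR, with a median of 0.04, where 1.04% and 3.6% of all genes were higher. With AII 0 genes of either target list were called (median 0.17 for TCF targets and -0.03 for MRTF targets). After 24 h 0 of 19 tested MRTF targets were called in any treatment. Whether TCF and MRTF targets differed from each other was not tested.

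Kinases, coactivators and related transcription factors were counted in the same way after 6 h with AII+EGF, against the same 1.39% of all genes higher under the full rule and 4% at the FDR alone. Of 10 kinases and coactivators MAP2K1 (MEK1) rose at the FDR alone, by 0.50, a count of 1 that is near the share over all genes, whereas the coactivators CREBBP and EP300 were at -0.02 and -0.05. MEF2A and MEF2D, which belong to the same MADS-box family as SRF, were at 0.01 and -0.22, and 0 of 3 tested MEF2 genes passed. Of 24 other ETS factors 11 were tested, of which 2 (ETV5 and ERF) rose under the full rule and 6 at the FDR, with ETS2, ETV1, ETV4 and ELF4 as the others. ETV5 went from 0.138 ± 0.163 to 9.20 ± 2.42 FPM, and ERF, an ETS repressor, rose by 0.60 (SE 0.12). The control level of ETV5 was at the floor, so that ETV5 could enter the 11 tested factors through the groups with EGF. EGFR mRNA rose by 0.35 with EGF and 0.41 with AII+EGF (adjusted p of 0.0319 and 0.0123 in edgeR), below 1.5-fold like ELK1.

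**Figure D5:**
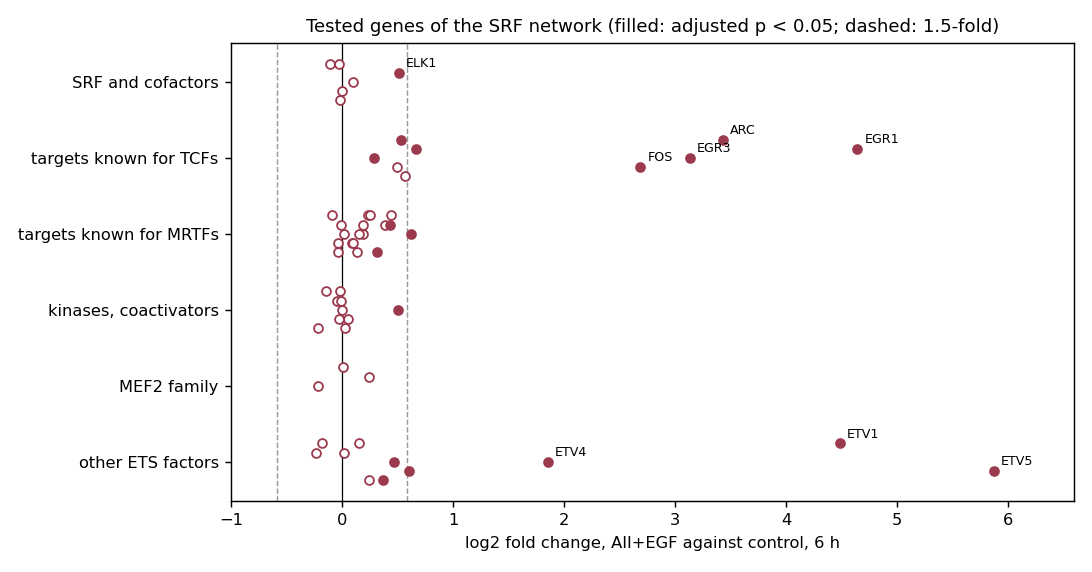
Log2 fold change with AII+EGF against control after 6 h (x axis) for the tested genes of the set and of each list described (rows); filled points have an adjusted p below 0.05 and dashed lines mark 1.5-fold. ELK1 is the only filled member at 0.51, TCF targets reach 4.64 (EGR1), ETV5 lies farther right among the other ETS factors, and the MRTF targets stay at or below 0.62 (ZYX).

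The genes whose levels were most like ELK1 over the 16 libraries after 6 h were ELAVL1, HOOK1 and SSR3, with Pearson's r of log2(FPM + 1) of 0.95, 0.94 and 0.94 among 13001 genes with a mean of at least 5 FPM. These values describe libraries that fall into groups with and without EGF, and over the 15 libraries after 24 h the same pairs had r of -0.09, -0.51 and -0.63. With AII+EGF after 6 h the 3 genes rose by 0.40, 0.86 and 0.45 on the log2 scale. Most like SRF were NSG1 (r of 0.83 after 6 h and -0.29 after 24 h), RPS6KL1 (0.78 and 0.60) and ZNF707 (0.78 and 0.37). For ELK3 they were NUDT4 (0.88 and -0.45), HIPK1 (0.87 and 0.08) and SCML2 (0.85 and -0.39), and for ELK4 TAF15 (0.91 and -0.70), SPIN2B (0.89 and -0.13) and UBXN2B (0.86 and 0.66). SMTN (0.86 and 0.18), CTD.2622I13.3 (0.86 and 0.31) and MIIP (0.85 and 0.29) were most like MKL1, and USP24 (0.84 and 0.35), KIAA0355 (0.83 and -0.05) and CCNK (0.81 and 0.27) most like MKL2. Depth and composition are shared by all genes of a library and enter these values.

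Counts and neighbouring genes bear on how far a value belongs to its gene. After 6 h the tested members had 87 to 691 counts per library, and after 24 h 50 to 979. In GENCODE on GRCh37, SRF (chr6:43139007-43149244, plus strand) and ELK1 (chrX:47494920-47510003, minus strand) share no exonic base with another gene. Exons of ELK3 (chr12:96588153-96663602), ELK4 (chr1:205566684-205601139), MKL1 (chr22:40806285-41032723) and MKL2 (chr16:14165176-14360630) overlap other genes over at most 5.95% of their length, the largest being the pseudogene RPL4P6 in MKL1. The processed relatives ELK1P1, ELK2AP and ELK2BP had at most 5 counts in a library, beside 143 to 544 counts for ELK1.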

How the data were processed

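RNA was sequenced from 32 libraries named in the labels. The authors deposited raw counts per gene (featureCounts 1.4.6, hg19, per the labels); the methods and labels give TopHat2 2.0.14 as the mapper, the series text HISAT2, and the strand setting is not given in the sources used here. Counts of 16 libraries after 6 h and 15 after 24 h were used, since no column was mapped to 1 AII+EGF library after 24 h (b08). Of the 24 h columns 8 carry the word filtered in their name, without an explanation.

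The counts were filtered with filterByExpr, scaled with TMM and tested by quasi-likelihood in edgeR 4.0.16 (R 4.3.3), with 1 model of the 4 conditions at each time. Genes were called at a Benjamini-Hochberg FDR below 0.05, and under the full rule also at a fold change above 1.5 and a mean above 5 FPM. A joint fit of both tables tested differences between time points. FPM were compared by exact two-sided permutation tests. The procedure was also run on counts simulated with the spread that edgeR itself had estimated, which cannot test that estimate. Exon lengths came from GENCODE and promoters from RefSeq GRCh38.p14. Confidence intervals cover 95%, and 3 counts were taken as the floor, for counting error only.

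The members and lists were chosen with earlier results of these data known. All members are named; of each list up to 4 genes with the largest change among those called with AII+EGF after 6 h are named, or the 2 most abundant, and the 3 genes most like each member. Genes past the FDR alone, JUNB, and EGR1 in the promoter comparison, were named after their values were seen. Alternatives were DESeq2 1.42.0, its size factors, no filter, protein-coding genes, the FDR alone, the run of library numbers as a block, leaving out each library, and transcript length. Results of 1 gene list are not reported here.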

Additional observations from a re-analysis of the deposited data

Results flagged for a closer look

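Of 47 groups of 4 libraries with values that were not all equal, 3 groups, of 2 members, had a library far from the other 3, where chance alone would set about 1 in 20 groups apart, or 2.35 of these. MKL1 with AII after 24 h was at 21.8 FPM in the third library (313 counts), while the others were at 16.5 to 17.0 FPM, and the gap took 0.900 of the group's range. MYOCD with AII and with EGF after 6 h was set apart only because a single library had 1 count and the others 0, which gives a gap of 1 in both groups and lies under the floor of 3 counts.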

How the results depend on the processing

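The rise of ELK1 after 6 h kept its direction and its side of the FDR with DESeq2, its size factors, no filter, protein-coding genes, the block and each library left out. With EGF the adjusted p lay between 0.00341 and 0.0219 when a library was left out, and with AII+EGF between 0.000232 and 0.00217. Without the fold and FPM criteria 1 member, ELK1, was called after 6 h with EGF, with AII+EGF and for AII+EGF against AII, in place of 0. With no filter the log2 fold change turned for MKL1 with EGF (0.0023) and AII+EGF (0.0055) and ELK4 with AII+EGF (0.018) after 6 h, for ELK3 with AII+EGF (0.0018) and the SRF interaction (0.028) after 24 h, and for the MKL1 difference of time points with EGF (-0.00785). MKL2 with AII+EGF after 24 h turned to -0.010 with DESeq2, -0.00926 with its size factors and -0.017 with protein-coding genes. None of these passed a test, and the cause was not tested. Leaving out a library also turned values that passed no test. For AII after 6 h the range was ELK4 -0.021 to 0.12, MKL1 -0.11 to 0.025, MKL2 -0.064 to 0.047. For EGF after 6 h the range was SRF -0.088 to 0.016, ELK4 -0.027 to 0.12, MKL1 -0.088 to 0.045. For AII+EGF after 6 h the range was SRF -0.079 to 0.028, ELK4 -0.078 to 0.062, MKL1 -0.10 to 0.048. For the interaction after 6 h the range was ELK1 -0.039 to 0.054, MKL1 -0.045 to 0.11, MKL2 -0.076 to 0.040. For AII after 24 h the range was SRF -0.19 to 0.19, ELK4 -0.096 to 0.13, MKL1 -0.049 to 0.18, MKL2 -0.046 to 0.13. For EGF after 24 h the range was SRF -0.033 to 0.36, ELK1 -0.100 to 0.0033, ELK4 -0.17 to 0.16, MKL1 -0.084 to 0.13. For AII+EGF after 24 h the range was SRF -0.027 to 0.35, ELK3 -0.069 to 0.040, MKL1 -0.22 to 0.00051, MKL2 -0.079 to 0.10. For the interaction after 24 h the range was SRF -0.19 to 0.20, ELK1 -0.19 to 0.023. For the difference of time points with AII the range was SRF -0.066 to 0.31, ELK4 -0.14 to 0.082, MKL2 -0.014 to 0.17. For the difference of time points with EGF the range was ELK4 -0.22 to 0.099, MKL1 -0.060 to 0.15. For the difference of time points with AII+EGF the range was SRF -0.012 to 0.37, MKL1 -0.21 to 0.0020. The longest transcript as length moved 10 of 12 levels per length. No paired analysis was possible because groups share no replicate number in the labels. The run of library numbers as a block changed no direction or call of a member.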
